A study of Mus musculus with 2 samples.

Results

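Retinoic acid is a small lipid signal that cells make from vitamin A. Retinaldehyde dehydrogenases of the Aldh1a family carry out its last synthetic step, Cyp26 enzymes of the cytochrome P450 family break it down, Crabp proteins bind it in the cytoplasm, and nuclear receptors of the Rar family bind DNA with Rxr partners and change transcription when it is present. In the developing mouse urinary tract the signal is best known for keeping the receptor tyrosine kinase gene Ret on in the ureteric bud. The genes described here are 10 members of this pathway, taken by their gene names on the array: the synthetic enzymes Aldh1a1, Aldh1a2 and Aldh1a3, the degrading enzymes Cyp26a1 and Cyp26b1, the receptors Rara, Rarb and Rarg, and the binding proteins Crabp1 and Crabp2. They have 13 of the 39429 probes on the array, 1 each for 8 genes, and all 10 were among the 20495 genes measured above background.

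RNA came from ureters dissected from embryos of the NMRI strain at E14.5. Rbpj-cKO embryos were Tbx18(cre/+);Rbpj(fl/fl), in which Cre recombinase made from 1 copy of the Tbx18 locus, active in the mesenchyme around the ureteric epithelium, removes the floxed Rbpj gene. Control embryos were Rbpj(fl/?), where the labels leave the second Rbpj allele unstated and name no Cre. Rbpj is the DNA-binding partner of Notch, and the arrays ask how ureter transcripts differ when it is lost from that mesenchyme. As no Cre is named for the controls, loss of Rbpj cannot be told apart from the presence of Cre at 1 Tbx18 copy. There were 2 arrays, each holding Rbpj-cKO and control RNA in different dyes: replicate 1 was male with Rbpj-cKO in red, and replicate 2 was female with Rbpj-cKO in green. Dye and sex therefore changed together and cannot be told apart, and the number of embryos and litters behind each RNA is not stated. P-values thus rest only on the spread between these 2 arrays, where the spread of each gene is drawn toward a value shared by all genes.

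Both Rbpj probes were lower in Rbpj-cKO on both arrays, with log2 ratios of -1.13 and -0.63 for the brighter and -0.48 and -0.37 for the other. Tbx18 itself had 0.17 and -0.24. The defining genes of ureteric mesenchyme (7 of 7) and urothelium (8 of 8) were measured above background, although Upk2 was dim. So were marker genes of skeletal muscle (5 of 5) and erythroid cells (5 of 5). Detection alone thus does not single out the labelled tissue. Over all genes, which are not independent of each other, replicates 1 and 2 correlated below 0 (Pearson's r = -0.352, Spearman's rho = -0.473, given with no p), and 30.8% kept 1 sign. The dyes are stated in the labels, so the direction was kept as Rbpj-cKO over control throughout. The mean over the 2 orientations is free of a shared dye effect, and the value of a single array is not.

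Sequences of Cyp26a1 and Rarb are shown first. In the reported processing Cyp26a1 had the most closely repeated difference of the 10 genes. This rank depended on the processing. With no offset in the background correction, Cyp26a1 had -0.79 and -0.73, while Rara had 0.13 and 0.12. Rarb had probes that disagreed. The probes of 60 bases are given, as the array files hold them. The Cyp26a1 probe lies at chr19:37775566-37775625 on the plus strand, and the Rarb probe at chr14:17264648-17264707 on the minus strand, both on mm9.
Cyp26a1 probe: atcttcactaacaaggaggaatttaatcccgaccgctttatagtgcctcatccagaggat
Rarb probe: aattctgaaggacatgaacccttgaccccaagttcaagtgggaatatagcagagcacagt

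Cyp26a1 and Rarb are also textbook genes switched on by retinoic acid itself, through receptor binding sites near their start. RefSeq windows from 250 bases before to 50 bases after a gene's start (GRCm38.p6) were found for 8 of the 10 genes, in 13 windows, and none for Aldh1a3 and Crabp2. They were searched on both strands for a pair of hexamers in the same orientation, with 1, 2 or 5 bases between them. Each hexamer was AGGTCA or AGTTCA or GGGTCA or GGTTCA. Such a pair was present in 2 of the 13 windows, those of Cyp26a1 and Rarb, and both had 5 bases between the hexamers, a spacing found in 0.0974% of all 32851 windows of this length. Shares for the spacings of 1 and 2 bases were 0.222% and 0.268%, and 0.588% of the windows had a pair at any of these spacings. Since both genes are known for such sites, their matches support nothing about these arrays. Capitals mark the match, which is a match of letters only. The Cyp26a1 window is chr19:37697558-37697857 on the plus strand, and its match reads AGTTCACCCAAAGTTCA on the minus strand, from position -32 to -16 relative to the start. The Rarb window is chr14:16575427-16575726 on the minus strand, and its match reads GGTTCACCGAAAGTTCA in the direction of the gene, from position -53 to -37 relative to the start.
Cyp26a1 window: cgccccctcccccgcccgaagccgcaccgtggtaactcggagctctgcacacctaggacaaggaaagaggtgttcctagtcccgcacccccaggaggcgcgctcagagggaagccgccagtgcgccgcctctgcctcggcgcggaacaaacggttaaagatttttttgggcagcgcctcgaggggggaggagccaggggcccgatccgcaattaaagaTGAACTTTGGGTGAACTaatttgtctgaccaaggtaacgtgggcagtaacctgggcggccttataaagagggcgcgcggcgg
Rarb window: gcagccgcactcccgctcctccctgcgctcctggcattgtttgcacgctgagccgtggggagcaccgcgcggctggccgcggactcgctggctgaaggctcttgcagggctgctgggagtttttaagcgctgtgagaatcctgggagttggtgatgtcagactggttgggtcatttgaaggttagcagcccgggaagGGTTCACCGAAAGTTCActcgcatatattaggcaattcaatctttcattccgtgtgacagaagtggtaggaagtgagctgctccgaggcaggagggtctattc

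Levels below are the scanner software's processed signals, a linear intensity after background subtraction and dye normalization, averaged over the spots of a probe. Levels of different probes are not comparable. Ratios are log2 of Rbpj-cKO over control after background correction and loess normalization, tested with limma over all genes with Benjamini-Hochberg adjustment.

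Among the enzymes that end the signal, Cyp26a1 was lower in Rbpj-cKO in both pairs by nearly the same amount, while Cyp26b1 was not. Cyp26a1, an enzyme that oxidises retinoic acid to inactive products, had levels of 67.1 in male and 60.7 in female Rbpj-cKO, against 122 in male and 105 in female control. Both Rbpj-cKO channels lay below both control channels, with all 4 spots well above background in every channel. Its log2 ratios were -0.65 and -0.64, with spot SDs of 0.059 and 0.037, a mean of -0.65 ± 0.012 (SD, n = 2 arrays), or 1.56-fold less. The moderated 95% interval of that mean ran from -0.96 to -0.33. Over all genes the difference did not pass (limma, unadjusted p = 0.00195, adjusted p = 1.0). Its mean had rank 25 from the lowest of 20495 genes. Cyp26a1 was the 1 member at least 1.5-fold apart in the same direction in both pairs. Of all genes 0.0634% were so on the lower side, 0.132% on the higher and 0.195% on either. With median centring in place of loess its ratios were -0.58 and -0.75, and replicate 1, at 1.49-fold, no longer met that size.

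At 60.7 to 122, Cyp26a1 had the lowest signals of the members' tested probes. The offset of 50 added to each channel draws dim ratios toward 0: the mean was -0.76 with no offset, -0.83 from the processed signals, and -0.86 in the authors' deposited table. Adjusted p from limma ranged from 0.476 to 1.0 over these and the other ways of processing.

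Cyp26b1, its relative with the same function, had levels of 411 and 491 in Rbpj-cKO and 465 and 467 in control, in the order male, female. The groups overlapped. The log2 ratios were -0.14 and 0.03, a mean of -0.06 ± 0.13 (n = 2), and the interval from -0.38 to 0.27 takes in a difference of either sign. The third enzyme of the family, Cyp26c1, had no probe above the filter.

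**Figure D1:**
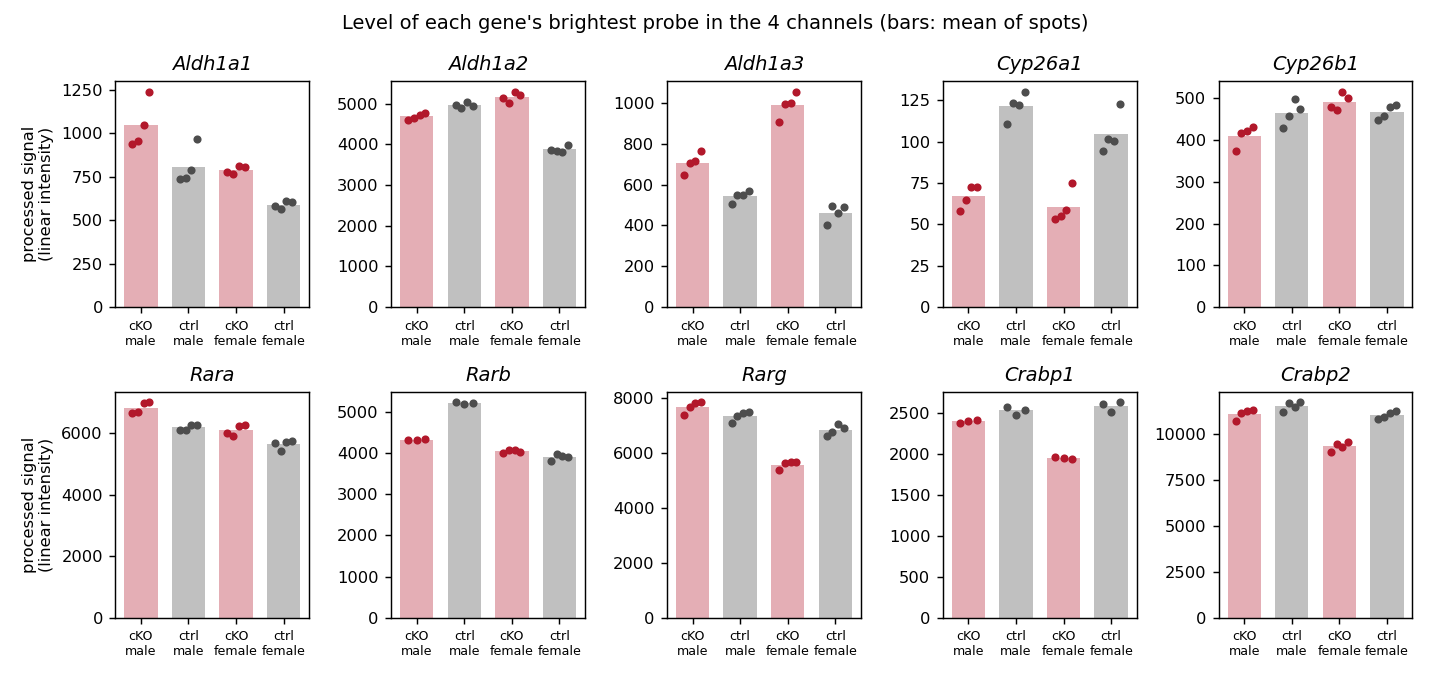
Processed signal (linear intensity, axis from 0) of the brightest probe of each gene in the 4 channels, Rbpj-cKO in red and control in grey, male and female pair. Bars are the mean of the spots and points the single spots, without spots flagged as outliers. Cyp26a1 is lower and Aldh1a3 higher in both Rbpj-cKO channels than in both control channels, while Aldh1a2 and Rarg change order between the pairs.

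The synthetic enzymes Aldh1a1 and Aldh1a3 were higher in Rbpj-cKO in both pairs, and Aldh1a2 was higher in the female pair and lower in the male. Aldh1a3 had levels of 709 and 990 in Rbpj-cKO, against 543 and 463 in control (male, female), so both Rbpj-cKO channels lay above both control channels. Its log2 ratios of 0.39 and 1.05 differed in size between the arrays by 0.67, with spot SDs of 0.028 and 0.084. The mean was 0.72 ± 0.47 (n = 2), 1.65-fold more, with a moderated interval from 0.28 to 1.16 (limma unadjusted p = 0.00658, adjusted p = 1.0). Its mean had rank 70 from the highest. It missed the 1.5-fold rule through replicate 1, where it was 1.31-fold higher.

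Aldh1a1 had levels of 1046 and 790 in Rbpj-cKO and 809 and 590 in control. Each pair was higher in Rbpj-cKO, but the levels overlap across the pairs, since male control lay above female Rbpj-cKO. The log2 ratios of 0.36 and 0.41 were close to each other, with a mean of 0.39 ± 0.029 (n = 2), 1.31-fold more, and an interval from 0.07 to 0.70 (limma unadjusted p = 0.0226, adjusted p = 1.0). Its close paralog Aldh1a7, named after its values were seen, had log2 ratios of -0.07 and 0.16. Aldh1a2, the enzyme that makes most of the retinoic acid in the early mouse embryo and is known from mesenchyme and mesothelium, had levels of 4685 and 5164 in Rbpj-cKO and 4960 and 3874 in control. It was thus lower in male and higher in female Rbpj-cKO, at log2 ratios of -0.09 and 0.42, with a mean of 0.16 ± 0.36 (n = 2) and an interval from -0.23 to 0.55. Its sign in the male pair depended on the normalization, since median centring gave 0.11 and 0.19.

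**Figure D2:**
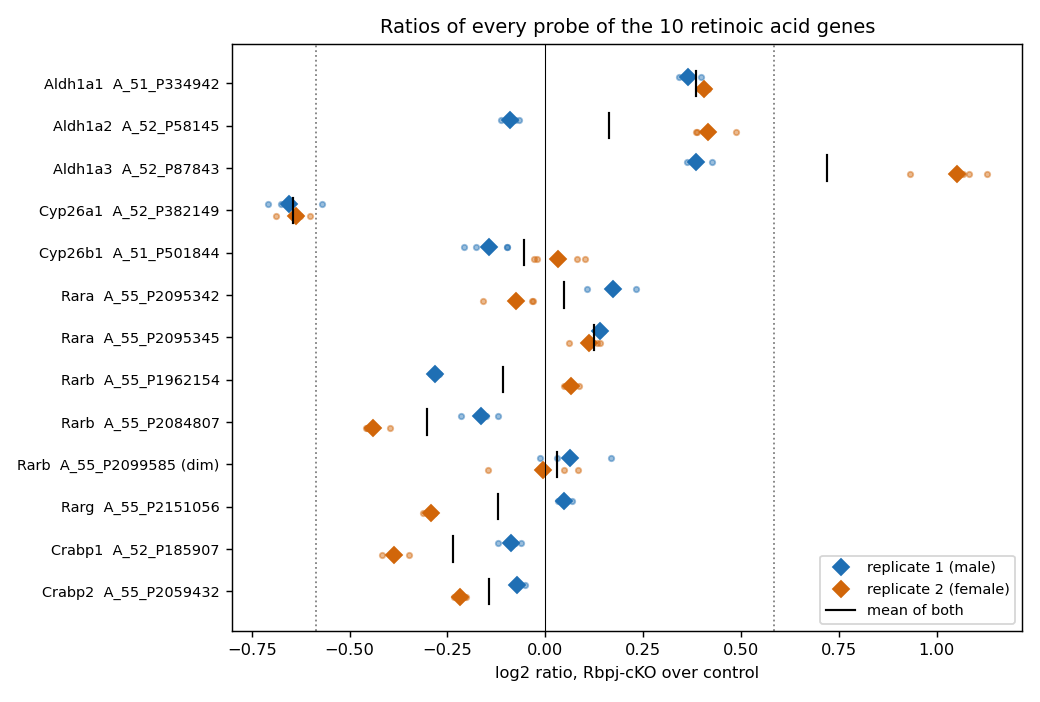
Log2 ratio of Rbpj-cKO over control for each of the 13 probes on replicate 1 (blue, male) and replicate 2 (orange, female). Diamonds are probe means, small points single spots, black ticks the mean of both arrays, and dotted lines a 1.5-fold difference. The diamonds of Cyp26a1 coincide near -0.65, those of Aldh1a1 near 0.39, and those of Aldh1a2, Aldh1a3 and the Rarb probes lie apart.

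The receptor genes had mean log2 ratios between -0.12 and 0.13, with moderated intervals that include 0. Rara, the receptor found in most tissues, had levels of 6826 and 6096 in Rbpj-cKO and 6182 and 5630 in control by its brighter probe, with log2 ratios of 0.14 and 0.11, a mean of 0.13 ± 0.021 (n = 2). The groups overlapped, and its interval ran from -0.19 to 0.44. Its other probe, 847 bases upstream, had 0.17 and -0.07. Rarg had levels of 7694 and 5589 in Rbpj-cKO and 7368 and 6846 in control, at log2 ratios of 0.05 and -0.29, a mean of -0.12 ± 0.24 (n = 2) with an interval from -0.47 to 0.23.

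Rarb, itself a target of the signal, gave different answers by probe. The brighter probe, on mm9 at 17263367 to 17263426 of chromosome 14, had levels of 4329 and 4045 in Rbpj-cKO and 5222 and 3908 in control, with log2 ratios of -0.28 and 0.07. The probe printed above, 1281 bases upstream along the gene, had levels of 534 and 468 in Rbpj-cKO and 608 and 637 in control, with -0.16 and -0.44. By this probe both Rbpj-cKO channels lay below both control channels, and by the brighter one they did not. The means were -0.11 ± 0.25 and -0.30 ± 0.20 (n = 2), so leading with the mean of the probes gives -0.21, against -0.11 by the brighter one alone. The array files name the same 4 RefSeq transcripts for both probes. The remaining Rarb probe, 388057 bases upstream of the brighter one, is listed for the transcript variants beta1 and beta3 only. It was well above background in at most 2 of 4 spots in any channel, with levels from 8.30 to 11.3, and was left out of the test.

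The binding proteins had small negative ratios in both pairs after loess, a direction that did not hold in the male pair under median centring. Crabp1 had levels of 2405 and 1956 in Rbpj-cKO and 2536 and 2588 in control, without overlap, at log2 ratios of -0.09 and -0.39, a mean of -0.24 ± 0.21 (n = 2). Crabp2, which hands retinoic acid to its receptors and responds to the signal itself in other tissues, had 11086 and 9331 in Rbpj-cKO and 11504 and 11014 in control. These levels overlap, since male Rbpj-cKO lay above female control. The log2 ratios were -0.07 and -0.22, a mean of -0.14 ± 0.10 (n = 2). The intervals, -0.58 to 0.10 and -0.46 to 0.17, include 0. With median centring both were higher in the male pair, at 0.08 and -0.58 for Crabp1 and 0.22 and -0.52 for Crabp2.

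**Figure D3:**
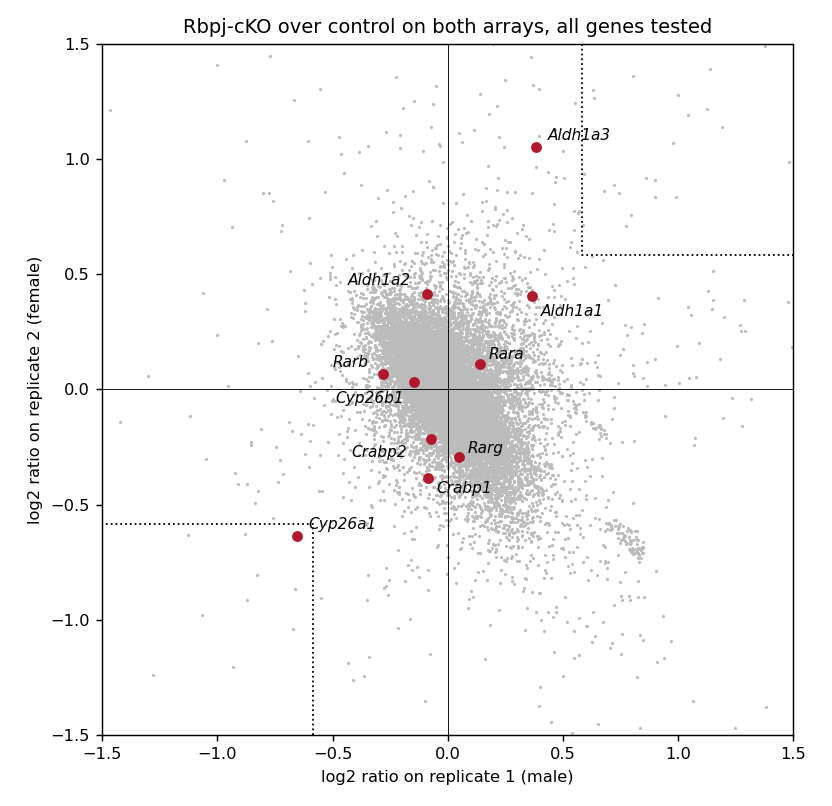
Log2 ratio on replicate 1 (horizontal) against replicate 2 (vertical) for the 20495 genes tested (grey), with the 10 retinoic acid genes in red. Dotted corners mark 1.5-fold or more in 1 direction, and 43 genes beyond 1.5 on either axis are not drawn. Cyp26a1 lies inside the lower corner, and Aldh1a3 and Aldh1a1 lie in the upper right, outside the corner.

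Counted together, 3 of the 10 genes were higher on both arrays (Aldh1a1, Aldh1a3 and Rara), 3 were lower on both (Cyp26a1, Crabp1 and Crabp2), and 4 had opposite signs (Aldh1a2, Cyp26b1, Rarb and Rarg). Of all genes, 16.1% were higher on both, 14.7% lower on both and 69.2% of opposite signs. With median centring, 3 genes were higher on both (Aldh1a1, Aldh1a2 and Aldh1a3), 2 were lower (Cyp26a1 and Rarb) and 5 had opposite signs, among them Rara (0.37 and -0.14), Crabp1 and Crabp2, against 11.3%, 9.83% and 78.9% of all genes. With the mean of a gene's probes, Rarb joined the genes lower on both, at -0.22 and -0.19. Levels did not overlap between the genotypes for 1 gene above (Aldh1a3) and 2 below (Cyp26a1 and Crabp1), against 3.82% and 3.5% of all genes. The members were chosen with earlier results of these data known, so these counts describe them and support nothing further. None of the 10 passed limma at an adjusted p under 0.05, as 0% of all genes did, and 3 had an unadjusted p under 0.05 (Cyp26a1, Aldh1a3 and Aldh1a1), against 1.82% of all genes, or 0.527% on the lower and 1.29% on the higher side. The median mean log2 ratio was -0.08 over the members and -0.0033 over all genes. In whole ureters, a change in the number of cells that hold a transcript and a change of its amount per cell cannot be told apart.

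Marker lists for other cell types of the dissected tissue are set beside the members by the direction of their ratios alone. Whether those cells hold the members' transcripts, or have a part in their ratios, was not tested. For comparison with the counts below, 16.1% of all genes had positive ratios in both pairs and 14.7% negative ones. Beside the lower Cyp26a1, the renal stroma list had 3 of 3 measured genes lower on both arrays (Foxd1, Ntn1 and Smoc2), with summed levels of 12997 and 11088 in Rbpj-cKO and 14193 and 11799 in control. The urothelial list had 4 of 8 lower and 2 higher on both, with sums of 8327 and 7336 against 9793 and 7885. Among the lower genes of these lists, replicate 2 ratios were small for Smoc2 (-0.017), Foxa1 (-0.016) and Cdh1 (-0.0054). They were larger in size for Foxd1 (-0.23), Ntn1 (-0.58), Krt5 (-1.25) and Upk1a (-0.16). Beside the higher Aldh1a3 and Aldh1a1, the list of neural crest, glia and neurons had 7 of 8 genes higher on both arrays, with sums of 41101 and 31005 in Rbpj-cKO and 33859 and 25706 in control. Macrophage genes had 4 of 5 higher, with sums of 5001 and 3663 against 3729 and 3473. Their replicate 2 ratios were 0.018 for Cd68, 0.044 for Csf1r, 0.064 for Cx3cr1 and 0.21 for Adgre1. With the mean of a gene's probes, 1 of the 5 was higher on both. Nephron genes had 2 of 5 measured higher and 3 of opposite signs, with sums of 3433 and 2954 against 2855 and 2618. Those of opposite signs were Six2 (-1.57 and 0.51), Lhx1 (-0.13 and 0.59) and Slc34a1 (0.08 and -0.13). Beside Aldh1a2, whose sign changed, the mesothelial list had median log2 ratios of 0.81 on replicate 1 and -0.11 on replicate 2, opposite in order to those of Aldh1a2. Its genes differed from each other. Bnc1 (0.81 and 0.07), Lrrn4 (0.94 and -0.11) and Upk3b (1.28 and -0.16) were dim, with levels from 16.6 to 74.0. The brighter Msln had -0.20 and 0.13, in the order of Aldh1a2, and Krt19 had 0.08 and -0.57. Erythroid and skeletal muscle lists, with 5 of 5 genes of opposite sign each, had medians of 0.25 and -0.59, and 0.39 and -0.80. Of the gonad and adrenal list, Amh and Sox3 were not well above background in any channel. With median centring, 2 of the 3 renal stroma genes and 4 of the 8 urothelial genes were lower on both, 7 of the 8 neural crest genes were higher, and 1 of the 5 macrophage and 0 of the 5 nephron genes were higher. In the remaining lists, the counts of genes higher in both pairs, and of those lower in both, were 2 and 1 of 7 for ureteric mesenchyme, 1 and 2 of 5 for smooth muscle, 1 and 2 of 7 for ureteric bud and collecting duct, 0 and 0 of 3 for gonad and adrenal, and 1 and 1 of 4 for endothelium.

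A wider list of 55 genes of retinoid transport, metabolism, receptor partners and response was set beside the members, of which 46 were measured. In it, 8 genes (17.4%) were higher in both pairs, 7 (15.2%) were lower in both and 31 (67.4%) had opposite signs, and 0 reached 1.5-fold in 1 direction. Of all genes, 16.1%, 14.7%, 69.2% and 0.195% were in these classes. The same shares stand beside the counts by role below. With median centring the list had 7, 5, 34 and 0 genes in these classes, and all genes 11.3%, 9.83% and 78.9% in the first ones. The median mean log2 ratio was -0.00083, next to -0.0033 over all genes. None passed limma's adjusted p. Against 1.82% of all genes, 1 gene of the list had an unadjusted p under 0.05 by limma. That gene was Rarres1, known to rise with retinoic acid in human skin, at 0.29 and 0.36, a mean of 0.33 ± 0.045 (n = 2). It was dim, with levels of 42.6 and 39.1 in Rbpj-cKO and 31.4 and 24.5 in control (male, female). Its spot SDs were 0.036 and 0.15.

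Upstream of retinoic acid, most enzymes had small ratios. Of 17 measured retinol and retinal enzymes, 2 were higher (Rdh5 and Adh4) and 3 lower (Rdh10, Bco2 and Rdh9) in both pairs, and the median was -0.01. Adh4 had 0.09 and 0.09, Bco2 -0.02 and -0.02, and Rdh9 -0.0053 and -0.012, and these 3 were chosen after their values were seen. Rdh10, which makes retinaldehyde for the Aldh1a enzymes in the embryo, had -0.13 and -0.13, and Rdh5, a retinol dehydrogenase best known from the eye, 0.10 and 0.20. The alcohol dehydrogenase gene Adh1 had 0.30 and -0.02, and Dhrs4, a carbonyl reductase, 0.13 and -0.38. Among the genes of transport, storage and binding, Fabp5, a fatty acid-binding protein that can also carry retinoic acid, had -0.30 and 0.10, and Lrat, which stores retinol as esters, -0.03 and 0.12. Ttr, a carrier of retinol-binding protein in blood, had 3.49 and -0.81, with levels of 2714 in male Rbpj-cKO, 220 in male control, 29.6 in female Rbpj-cKO and 67.9 in female control, so that male Rbpj-cKO stood alone.

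Of 12 receptor partners and cofactors, 4 were higher in both pairs (Nr2f2, Ncoa2, Nrip1 and Ppard) and 1 was lower (Nr2f1), with mean ratios between -0.10 and 0.08. Ncoa2, Nrip1 and Ppard were named after their values were seen. Rxra, the partner receptor, had 0.02 and -0.22, while its other probe had -0.10 and 0.0030. Nr2f2 and Nr2f1, orphan receptors that can bind the same kind of repeats, had 0.07 and 0.09, and -0.13 and -0.03, where the other probe of Nr2f1 had -0.14 and 0.12. Ncoa1, a coactivator, had -0.08 and 0.20, while its remaining probes averaged 0.051 and 0.046.

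Of 9 measured genes known to respond to retinoic acid in other settings, 2 were higher (Rarres1 and Rarres2) and 2 lower (Tgm2 and Meis1) in both pairs. Rarres2, a secreted chemoattractant chosen after its values were seen, had 0.41 and 0.16. Tgm2, a transglutaminase, had -0.07 and -0.31, while its other probe had 0.15 and -0.58. Meis1, a homeobox gene of proximal limb identity, had -0.01 and -0.22. Ret had the largest spread of them, at -0.51 and 1.99. Its levels were 148 in male Rbpj-cKO against 225 in male control, and 240 in female Rbpj-cKO against 43.5 in female control, so that female control stood lowest and the other 3 channels lay between 148 and 240.

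**Figure D4:**
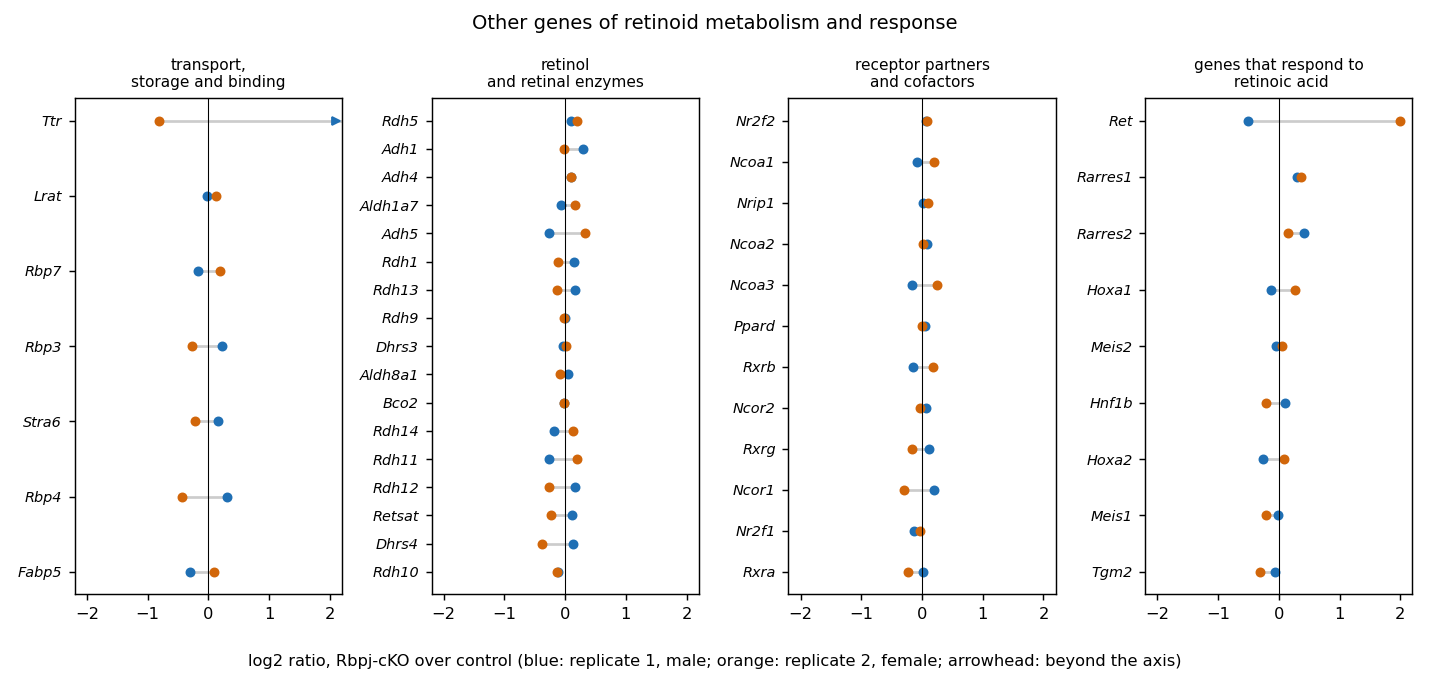
Log2 ratio of Rbpj-cKO over control on replicate 1 (blue, male) and replicate 2 (orange, female) for measured genes of the wider retinoid list, by role and ordered by mean. Most pairs of points lie on both sides of 0; Ttr, beyond the axis on replicate 1 (arrowhead), and Ret lie widest apart.

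By the smallest distance between the pairs of ratios on the 2 arrays, the named genes most like Cyp26a1 were Ctnna2 (-0.76 and -0.56), Cldn4 (-0.53 and -0.58), Wfdc18 (-0.56 and -0.44), Rasgrf1 (-0.55 and -0.44) and Nyap1 (-0.88 and -0.63), at distances of 0.13 to 0.225. Those most like Aldh1a3 were Fzd10 (0.39 and 1.10), Dleu2 (0.47 and 1.12), Fam163a (0.50 and 1.04), Spink8 (0.43 and 0.94) and Kif5a (0.24 and 1.05), at distances of 0.048 to 0.141. The other probe of Dleu2 had a mean of -0.03, and that of Kif5a had 0.08 and 0.38. The likeness of these genes thus belongs to 1 probe each. Among the genes like Cyp26a1, other probes were also lower on both arrays, but at other sizes. They had -0.42 and -0.46 for Ctnna2, -0.16 and -0.93 for Cldn4, and -0.23 and -0.45 for Rasgrf1.

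The choice of processing moved the mean by over 1.5 times for Rarb (-0.21 by the mean of its probes) and for Cyp26b1 (-0.024 in the authors' deposited table, against -0.056). For all 10 genes the sign of the mean over both arrays was the same under 9 other ways of processing, while the sign on a single array was not always. Several of these ways could not turn a sign. Changes of the filter and the robust moderation left the means of all 10 genes as they were. Keeping outlier spots moved only those of Rarb and Crabp1.

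**Figure D5:**
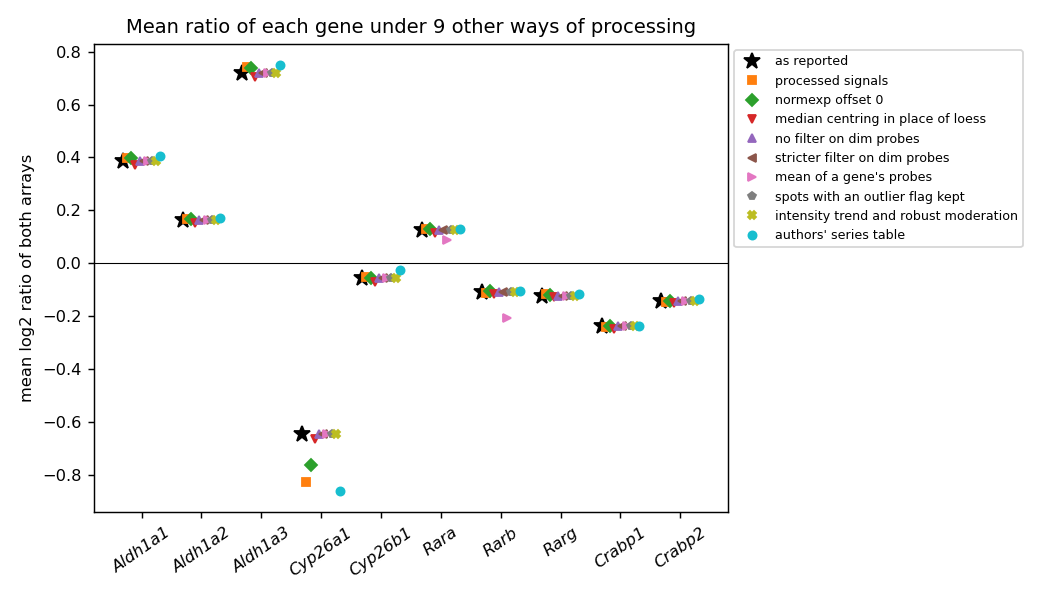
Mean log2 ratio of both arrays for each gene as reported (black star) and under 9 other ways of processing (coloured symbols). Cyp26a1 moves between -0.65 and -0.86 and Rarb between -0.10 and -0.21, and no gene crosses 0. Settings that change only the filter or the moderation repeat the reported values.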

How the data were processed

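RNA was measured on 2 Agilent 2-colour arrays, with 150 ng of total RNA as labelling input per the labels' protocols. Mean and background median intensity per spot were deposited without normalization, per the file headers. The processed intensity and the log10 ratio made from it, deposited beside it, come from the scanner software, which subtracted background, removed spatial trends and balanced the dyes, per the file headers. The submitters' processing notes name Agilent Feature Extraction 10.7.3.1. Deposited flags, coded as other values of 0 or 1, mark spots well above background, saturated or outlying, per the file headers. The authors also deposited a score per probe, read here as a signed linear fold because no value lies between -1 and 1 and its log2 size ran with the processed log2 ratio (r = 0.781 and 0.849 across probes). The sources used here do not give how the authors made it.

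Background was corrected with normexp (offset 50) and ratios were normalized by loess within each array, with 17263 control spots at weight 0 (limma 3.58.1, R 4.3.3). Outlier spots (3.57% and 3.90%) were left out, 0 spots were saturated, and the spots of a probe (4 on the array) were averaged. Ratios of replicate 2 were turned. A probe was kept with 2 or more spots well above background in either channel, on both arrays (26980 of 39429 probes), and the brightest probe stood for a gene. Of the probes, 28328 were named by RefSeq accession, 3400 by symbol and 7701 as in the file. Between 67.7% and 70.1% of the spots were well above background in a channel, and the number of arrays limits the precision. Mean ratios were set against 0 by limma's lmFit and eBayes, two-sided (1 residual and 5.57 prior degrees of freedom), and the procedure was tested on simulated spots. Named are the members, Rbpj, the 5 named genes nearest to Cyp26a1 and to Aldh1a3 by Euclidean distance over both ratios, and of the wider list any gene 1.5-fold or more in 1 direction plus the highest and lowest 2 of each role. The members and lists were chosen with earlier results of these data known. RefSeq windows are on another build than the array and were used for sequence only. A gene of the wider list that the naming rule picks is counted but not reported here by name or value.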

Additional observations from a re-analysis of the deposited data

Results flagged for a closer look

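Among the 10 genes and those that the naming rule picks from the wider list, 12 were higher in Rbpj-cKO of 1 sex and lower in the other, whose dyes were also exchanged, while 69.2% of all genes had opposite signs. With 1 array per sex, none of these differences was tested. The female log2 ratio subtracted from the male one gave -0.50 for Aldh1a2, -0.18 for Cyp26b1, -0.35 for Rarb by its brighter probe and 0.34 for Rarg. Among the other retinoid genes it gave -0.41 for Fabp5, -0.15 for Lrat, 4.30 for Ttr, 0.51 for Dhrs4, 0.32 for Adh1, 0.25 for Rxra, -0.29 for Ncoa1 and -2.51 for Ret. Those of Ttr and Ret exceeded 2 on the log2 scale. The spot SDs of Ttr were 0.043 and 0.028 and those of Ret 0.13 and 0.072.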

How the results depend on the processing

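The 9 other ways of processing that allow a test were the processed signals, normexp without an offset, median centring, no filter and a stricter filter on dim probes, the mean of a gene's probes, outlier spots kept, an intensity trend with robust moderation, and the authors' series table. None changed the sign of the mean of any of the 10 genes, or brought 1 of them to an adjusted p under 0.05. The unchanged sign was given under no filter, the stricter filter and robust moderation, which left all 10 means as they were. Cyp26a1 met the 1.5-fold rule on both arrays as reported but not with median centring, at -0.58 and -0.75. Keeping outlier spots moved only the means of Rarb and Crabp1, and the mean of probes only those of Rara and Rarb. Signs on a single array did turn: with median centring on replicate 1 for Aldh1a2, Crabp1 and Crabp2, on replicate 2 for Rara and Rarb and on both for Cyp26b1, and with the mean of probes on replicate 2 for Rarb. The cause was not tested. With median centring, the median of all genes was 0.12 on replicate 1 and -0.13 on replicate 2. Genes with an adjusted p under 0.05 numbered 0 as reported, 1 with the processed signals and 5 with the intensity trend; none of the 10 was among them. At least 1.5-fold higher on both arrays were 27 genes as reported, 60 with the processed signals, 43 without an offset and 59 in the authors' table, and lower 13, against 28 and 26 with the first and last. On single arrays, 228 to 286 genes were higher and 73 to 386 lower. Without replicate 1 or replicate 2 the wider list had 23 to 24 genes higher and 22 to 23 lower, with medians of -0.0052 and 0.018. The ratio of a single array was -0.64 to -0.65 for Cyp26a1, 0.39 to 1.05 for Aldh1a3 and 0.36 to 0.41 for Aldh1a1. It changed sign for Aldh1a2 (-0.09 to 0.42), Cyp26b1 (-0.14 to 0.03), Rarb (-0.28 to 0.07) and Rarg (-0.29 to 0.05). It was 0.11 to 0.14 for Rara, -0.39 to -0.09 for Crabp1 and -0.22 to -0.07 for Crabp2. The ratios already pair the genotypes within each array, so the reported fit is the paired one. With 1 group of ratios there is no further pairing of arrays to block on.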
